A study of Macaca nemestrina with 15 samples.

Results

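The genes described here are 10 genes that mark or direct the dendritic cells of blood: CLEC9A, BATF3, CD1C, CLEC10A, FLT3, ZBTB46, LILRA4, TCF4, IL3RA and IRF8. They were taken by name from the 28865 features of the count table, as known dendritic cell genes, with earlier results of these data known. All 10 were in the table, and all 10 were among the 12880 features that passed the filter on low counts. Islatravir (ISL), a nucleoside reverse transcriptase translocation inhibitor developed against HIV, was given orally to 5 female pig-tailed macaques (Macaca nemestrina) at 30 mg/kg, by gavage, once weekly for 12 weeks. Peripheral blood mononuclear cells (PBMCs) of each animal were sequenced before treatment, at week 12 of ISL and at week 18, which gave 15 libraries. The design text places the last sample 6 weeks after the last dose, but the sources give a shorter interval elsewhere. The labels carry Control for the pre-treatment libraries and Islatravir for both later time points. No genotype, age or untreated animal was given, so the effect of ISL and the passage of time cannot be told apart. According to the dates in the library titles, an animal's week 12 sample followed its earliest by 56 to 57 days and its week 18 sample by 84 days, with 27 to 28 days between them, which does not match the week names. Z15228 and Z13076 carried earlier dates at each time point than Z15339, Z15303 and Z15408, which shared theirs. Differences between the former and the latter animals cannot be told apart from date. What these dates mark was not stated, and the week names of the labels are used.

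Dendritic cells take up antigen and present it to T-cells. Conventional dendritic cells type 1 (cDC1) present antigen from dead cells to CD8 T-cells, conventional dendritic cells type 2 (cDC2) mainly prime CD4 T-cells, and plasmacytoid dendritic cells (pDCs) release type I interferon after sensing viral nucleic acid. They are rare among PBMCs, and several of their genes are also used by B-cells, monocytes, basophils or progenitors, so in bulk PBMC RNA a lower value can come from fewer cells of a type or from less RNA per cell, which cannot be told apart.

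Each library held 5610597 to 10379572 counts on 15717 to 16556 detected features. Levels are given as CPM, read counts scaled to the size of the library after TMM, which corrects for differences in library composition. Levels were not compared between genes, since gene lengths were not used here. The animals are listed throughout in the order Z15228, Z13076, Z15339, Z15303 and Z15408. Depth limited 3 genes most: CLEC10A had 2 to 39 counts per library, CLEC9A 3 to 168 and IL3RA 7 to 27. The other 7 genes had 14 to 2504 counts per library.

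None of the 10 genes passed the test at any time point. By edgeR's quasi-likelihood test, with a Benjamini-Hochberg adjusted p of 0.05 over all features, 0 of 10 passed at week 12 vs. pre-treatment, at week 18 vs. pre-treatment and at week 18 vs. week 12. The background was 0.0% of all features in each comparison. With the animal as a block, which compares each animal with itself, again 0 of 10 passed in each comparison. The blocked background was 0.00776%, or 1 feature, at week 12 and at week 18 vs. pre-treatment, and 0.0% at week 18 vs. week 12. At an unadjusted p under 0.05, only TCF4 of the 10 was lower at week 12, where 1.09% of features were lower, and at week 18, where 1.08% were. None of the 10 was higher by that measure at week 12 (background 0.52%) or at week 18 (background 0.613%), and at week 18 vs. week 12 none was lower (0.225%) or higher (0.28%). The blocked edgeR test had TCF4, CD1C and IRF8 lower at week 12 by an unadjusted p under 0.05 (background 3.25%) and none higher (1.44%). At week 18 it had TCF4 lower (background 3.78%) and CLEC10A higher (background 2.07%). At week 18 vs. week 12 it had CD1C higher (background 1.16%) and none lower (1.01%). The blocked DESeq2 test called TCF4 alone among the 10, at week 12 and at week 18 vs. pre-treatment, and the unblocked DESeq2 test called 0 of 10.

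**Figure D1:**
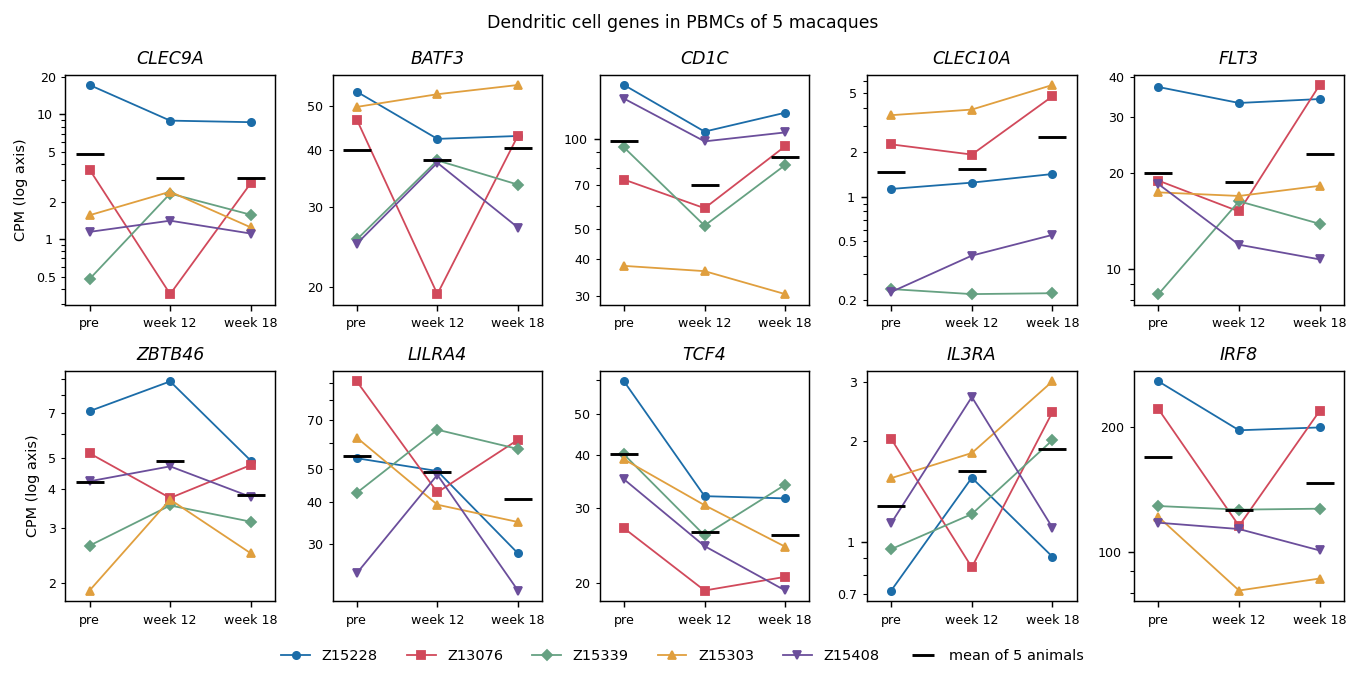
CPM (log axis) of the 10 dendritic cell genes at pre-treatment, week 12 and week 18, with a line for each of the 5 animals. TCF4 is lower at both later time points in all 5 animals, while for CLEC10A and CD1C the lines of the animals lie far apart and stay in similar order.

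TCF4, a gene of pDCs that B-cells also use, encodes the transcription factor that sets and maintains pDC identity. Its within-animal log2 changes at week 12 had the smallest SD of the 10 genes, 0.203. At week 18 their SD was 0.298, against 0.276 for BATF3 and 0.210 for IRF8. Before treatment the animals had 59.7, 26.9, 40.1, 39.1 and 35.0 CPM of TCF4. At week 12 they had 32.0, 19.1, 25.8, 30.4 and 24.4 CPM. At week 18 they had 31.6, 20.6, 34.0, 24.3 and 19.2 CPM. TCF4 was lower in 5 of 5 animals at both later time points, but the ranges overlapped, since the lowest pre-treatment value, that of Z13076, lay below the highest values of both. The means were 40.2 ± 12.1, 26.4 ± 5.11 and 25.9 ± 6.61 CPM (SD, n = 5). The log2 fold change was −0.61 ± 0.21 (SE) at week 12 and −0.63 ± 0.22 at week 18, with an edgeR adjusted p of 1.00 in both comparisons. With the animal as a block the same changes were −0.59 ± 0.13 (adjusted p = 0.204) and −0.61 ± 0.13 (adjusted p = 0.0972). The blocked DESeq2 test gave −0.58 (adjusted p = 0.0331) and −0.61 (adjusted p = 0.0149). Between week 12 and week 18 the log2 fold change was −0.02. The study's own DESeq2 Wald test on these same libraries listed TCF4 among the genes differentially expressed during treatment, with a lower level. Its direction here is therefore not independent evidence.

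LILRA4, a receptor of pDCs that dampens their interferon release, was not lower in every animal at either later time point. It belongs to a family of closely related receptors, so the assignment of its reads is uncertain. The pre-treatment values were 53.9, 91.0, 42.6, 62.0 and 24.7 CPM. At week 12 LILRA4 stood at 49.4, 42.8, 65.5, 39.3 and 48.2 CPM. At week 18 it stood at 28.2, 61.1, 57.4, 34.9 and 21.9 CPM. The animals lay closer together at week 12 (SD 10.1 CPM, against 24.6 CPM before treatment), when LILRA4 was lower in Z15228, Z13076 and Z15303 and higher in Z15339 and Z15408. At week 18 it was below the pre-treatment value in 4 of 5 animals, Z15339 being the exception. In log2 terms the change was −0.16 ± 0.31 (SE) at week 12 and −0.43 ± 0.31 at week 18 (edgeR adjusted p = 1.00 in both), and −0.06 ± 0.23 and −0.44 ± 0.23 with the animal as a block (adjusted p = 0.992 and 0.856).

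IL3RA encodes the interleukin 3 receptor alpha chain (CD123), which is high on pDCs and basophils. The pre-treatment libraries held 0.719, 2.03, 0.955, 1.55 and 1.14 CPM of it. The week 12 libraries held 1.56, 0.843, 1.21, 1.85 and 2.71 CPM, and the week 18 libraries 0.906, 2.44, 2.02, 3.01 and 1.11 CPM. IL3RA was higher in 4 of 5 animals at week 12, where 16.9% of features were higher in at least 4. At week 18 it was again higher in 4 of 5 animals (background 17.5%), and the groups overlapped widely at this low depth. Its log2 fold change was 0.35 ± 0.42 (SE) at week 12 and 0.55 ± 0.42 at week 18 (edgeR adjusted p = 1.00 in both).

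CD1C belongs to the cDC2 genes: it encodes a lipid-presenting molecule of cDC2 that is also found on a subset of B-cells, and it has close relatives in the CD1 family. Before treatment it stood at 151, 73.1, 93.5, 37.8 and 136 CPM. At week 12 it stood at 105, 58.8, 51.4, 36.3 and 97.9 CPM. At week 18 it stood at 122, 94.3, 81.7, 30.5 and 105 CPM. Every animal had less CD1C at week 12 than before treatment, by little in Z15303, and 4 of 5 had less at week 18, where 19.0% of features were lower in at least 4. The ranges of the 3 time points nevertheless overlapped almost fully, because the animals differed in level throughout. The fitted log2 fold change was −0.48 ± 0.39 (SE) at week 12 and −0.18 ± 0.39 at week 18 (edgeR adjusted p = 1.00 in both). The blocked test gave −0.45 ± 0.13 (adjusted p = 0.559) and −0.15 ± 0.13 (adjusted p = 0.909). From week 12 to week 18 CD1C was higher in 4 of 5 animals (17.9% of features were in at least 4), with a blocked log2 fold change of 0.30 ± 0.13 (edgeR adjusted p = 1.00).

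CLEC10A, a sugar-binding receptor of cDC2, had its higher values at week 18. Before treatment the libraries had 1.13, 2.26, 0.239, 3.55 and 0.228 CPM, from 11, 20, 2, 32 and 2 counts. At week 12 they had 1.25, 1.93, 0.221, 3.87 and 0.401 CPM, from 12, 16, 2, 21 and 4 counts. At week 18 they had 1.42, 4.76, 0.224, 5.68 and 0.554 CPM, from 11, 39, 2, 32 and 5 counts. In 5 of 5 animals the week 18 value of CLEC10A exceeded that of week 12, as for 3.0% of features, and in 4 of 5 it exceeded the pre-treatment value. In Z15339 and Z15408 these differences rest on 2 to 5 counts per library. On the log2 scale the change was −0.02 ± 0.88 (SE) at week 12, 0.73 ± 0.88 at week 18 and 0.75 ± 0.89 between them (edgeR adjusted p = 1.00 in each). With the animal as a block these were 0.08 ± 0.35, 0.73 ± 0.33 and 0.64 ± 0.34, with an adjusted p of 0.994, 0.839 and 1.00.

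For cDC1, CLEC9A, the receptor by which these cells recognise dead cells, was set apart by animal Z15228. The pre-treatment values were 17.3, 3.61, 0.478, 1.55 and 1.14 CPM, from 168, 32, 4, 14 and 10 counts. At week 12 the values were 8.93, 0.361, 2.32, 2.40 and 1.40 CPM, from 86, 3, 21, 13 and 14 counts. At week 18 they were 8.68, 2.81, 1.57, 1.24 and 1.11 CPM, from 67, 23, 14, 7 and 10 counts. At week 12 CLEC9A was lower in Z15228 and Z13076 and higher in the other 3 animals, and at week 18 it was lower than before treatment in 4 of 5. In log2 terms the change was −0.64 ± 0.89 (SE) and −0.65 ± 0.90 (edgeR adjusted p = 1.00 in both), which the blocked test brought to −0.29 ± 0.45 and −0.30 ± 0.45. Without Z15228 the blocked values were 0.085 and 0.053, and without Z13076 they were 0.13 and −0.30. In the fit without the block the sign held when either animal was left out, at −0.079 and −0.0068 without Z15228.

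BATF3 encodes a transcription factor that cDC1 need to develop and that lymphocytes also use. The libraries had 53.8, 46.7, 25.4, 49.8 and 24.9 CPM before treatment. They had 42.4, 19.3, 38.0, 53.1 and 37.5 CPM at week 12 and 43.0, 43.1, 33.6, 55.7 and 27.0 CPM at week 18. BATF3, like CLEC9A, was lower in Z15228 and Z13076 at week 12 and higher in the other 3 animals. Its log2 fold change was −0.08 ± 0.27 (SE) at week 12 and 0.01 ± 0.27 at week 18 (edgeR adjusted p = 1.00 in both), the smallest at week 18 among the 10 genes.

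Genes shared by both kinds of conventional dendritic cell gave no common direction. FLT3, the receptor for the growth factor on which dendritic cells depend and which progenitors also carry, stood at 37.3, 19.0, 8.36, 17.4 and 18.5 CPM before treatment. It stood at 33.2, 15.2, 16.3, 17.0 and 11.9 CPM at week 12 and at 34.2, 37.8, 13.9, 18.3 and 10.7 CPM at week 18. FLT3 was lower in 4 of 5 animals at week 12 (background 18.4%) and in 2 of 5 at week 18, with a log2 fold change of −0.10 ± 0.40 (SE) and 0.19 ± 0.40 (edgeR adjusted p = 1.00 in both). ZBTB46, a transcription factor that separates conventional dendritic cells from other myeloid cells, stood at 7.09, 5.19, 2.63, 1.89 and 4.22 CPM before treatment. It stood at 8.83, 3.73, 3.53, 3.69 and 4.71 CPM at week 12 and at 4.92, 4.76, 3.13, 2.48 and 3.76 CPM at week 18. ZBTB46 was higher in 4 of 5 animals at week 12, all but Z13076, and lower in 3 of 5 at week 18. Its log2 fold change was 0.22 ± 0.36 (SE) and −0.14 ± 0.37 (edgeR adjusted p = 1.00 in both).

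IRF8 encodes a transcription factor needed for cDC1 and also used by pDCs, monocytes and B-cells. Before treatment it stood at 257, 221, 129, 122 and 118 CPM. At week 12 it stood at 196, 116, 127, 81.0 and 114 CPM. At week 18 it stood at 199, 218, 127, 86.5 and 101 CPM. IRF8 was lower than before treatment in 5 of 5 animals at both time points, by little in Z15339 throughout, in Z15408 at week 12 and in Z13076 at week 18. The fitted log2 fold change was −0.42 ± 0.30 (SE) at week 12 and −0.21 ± 0.30 at week 18 (edgeR adjusted p = 1.00 in both), and −0.38 ± 0.14 and −0.22 ± 0.14 with the animal as a block (adjusted p = 0.765 and 0.883).

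**Figure D2:**
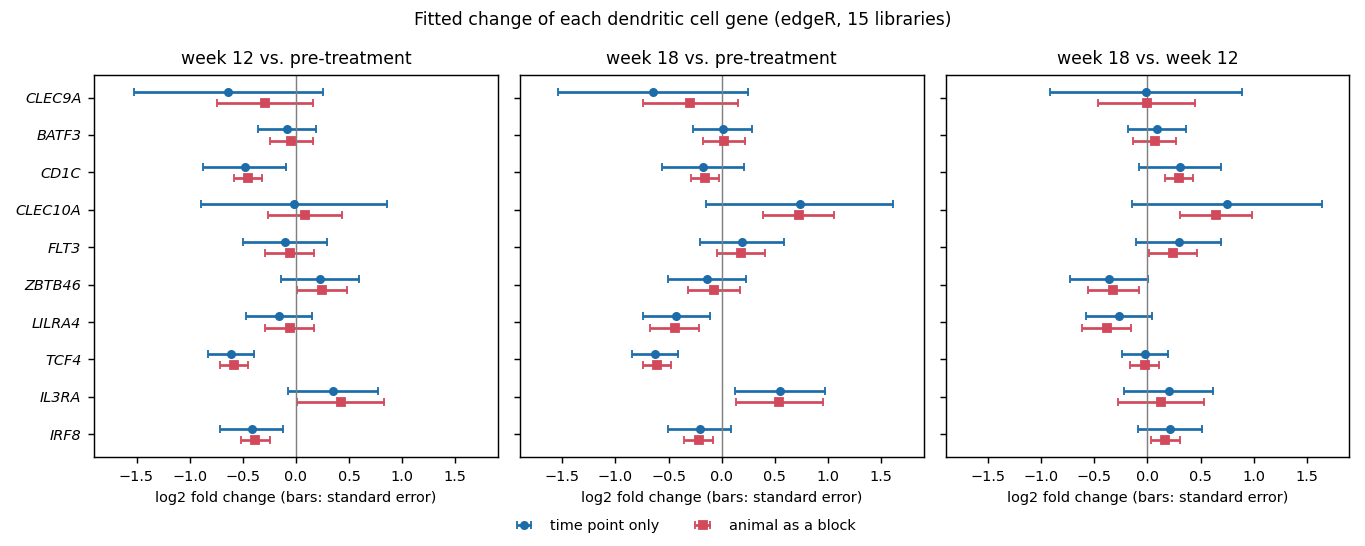
Log2 fold change of each of the 10 genes by edgeR at week 12 and at week 18 vs. pre-treatment, with bars of 1 SE, without and with the animal as a block. Blocked errors are smaller for each gene, and TCF4 lies below 0 by about the same amount, −0.59 and −0.61, at both time points.

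Counted over the 10 genes, TCF4, CD1C and IRF8 were lower in 5 of 5 animals at week 12, against 3.45% of all features, and TCF4 and IRF8 at week 18, against 3.49%. The log2 fold change was below 0 for 8 of 10 at week 12 (49.0% of all features), for 6 of 10 at week 18 (49.8%) and for 4 of 10 at week 18 vs. week 12 (51.1%). The median of the 10 was −0.13, −0.16 and 0.14 in these comparisons, against 0.00 over all features in each. Both comparisons with pre-treatment share the same 5 control libraries. None was higher in 5 of 5 animals at week 12 (background 2.24%) or at week 18 (3.05%), and none was lower in 5 of 5 at week 18 vs. week 12 (2.87%). In none of the 10 did the ranges of any 2 time points separate. Of all features, 0.163% separated downward and 0.116% upward at week 12, 0.202% and 0.132% at week 18, and 0.0466% and 0.0543% at week 18 vs. week 12.

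The week 12 library of animal Z13076 stood apart in these genes. All 10 were lower in it than in the same animal's pre-treatment library, by a median of −0.71 on the log2 scale and from −2.69 for CLEC9A to −0.20. Over all features 48.8% were lower in that pair. All 10 were then higher at week 18 than at week 12, by a median of 1.03 and from 0.11 to 2.35, against 49.5% of all features. In the other 4 animals 4 to 7 of the 10 were lower at week 12, against 49.8% to 52.7% of all features. Monocyte genes moved with them: 8 of 8 tested were lower in Z13076 at week 12 (median −0.94) and 0 of 8 were lower at week 18 vs. week 12 (median 1.31). Their part in the result was not tested. Monocyte genes were also lower for 8 of 8 in Z15228 at week 12 (median −0.33), where 7 of the 10 dendritic cell genes were lower. Of all features 51.1% were lower in that pair of libraries. Without the week 12 library of Z13076, a setting chosen after its values were seen, the week 12 changes were −0.51 for TCF4, −0.43 for CD1C, −0.39 for IRF8 and 0.086 for BATF3, and with the animal as a block −0.58, −0.42, −0.24 and 0.20. The blocked change of LILRA4 was then 0.16, that of CLEC9A 0.13 and that of IL3RA 0.75.

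**Figure D3:**
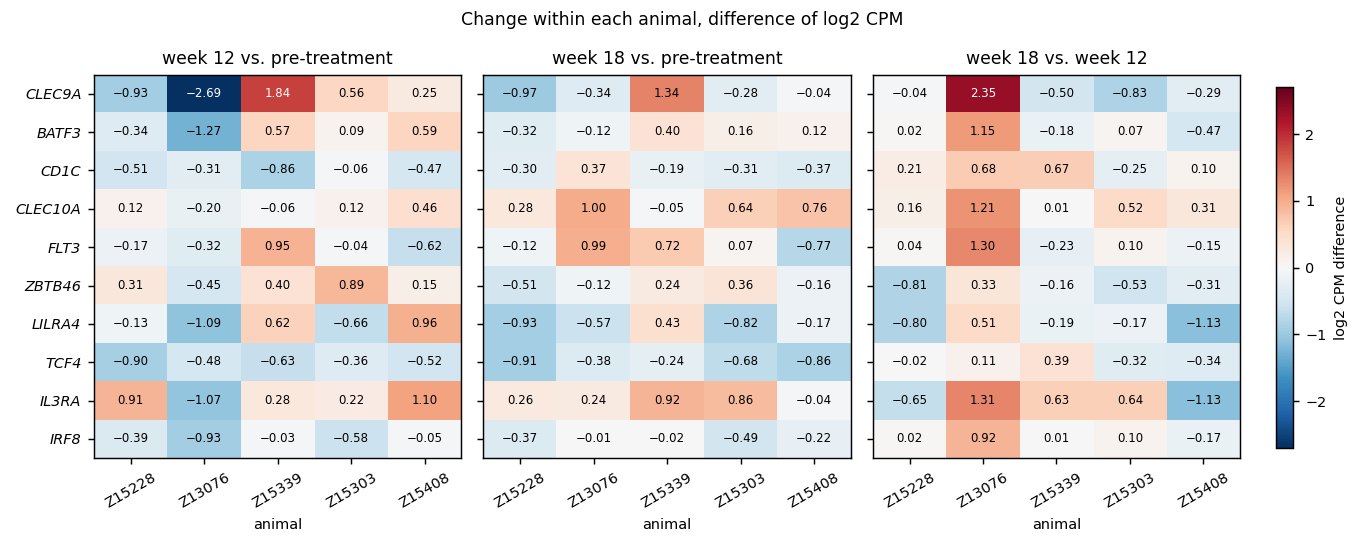
Change in log2 CPM of each of the 10 genes in each of the 5 animals, by comparison, with 0 as no change. At week 12 all 10 values of Z13076 lie below 0, and at week 18 vs. week 12 all 10 lie above 0.

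Animals differed more than time points did in most of these genes. Split into shares, the variance of log2 CPM of CLEC10A lay 94.5% between animals and 3.17% between time points, and only 0.846% of features had a higher animal share. CD1C followed with 86.8% between animals and 6.97% between time points. The animal share was 76.3% for IRF8, 75.9% for ZBTB46, 72.3% for CLEC9A and 70.8% for FLT3, against a median of 51.9% over all features. With 5 animals and 3 time points, animals take 28.6% and time points 14.3% of the degrees of freedom, which are the shares that random values would give on average. TCF4 had the most even split of the 10, with 45.6% between animals and 43.3% between time points, where the median feature had 6.23% between time points. BATF3, LILRA4 and IL3RA had the largest remainders, 46.4%, 43.8% and 59.2%, which neither animal nor time point took up.

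**Figure D4:**
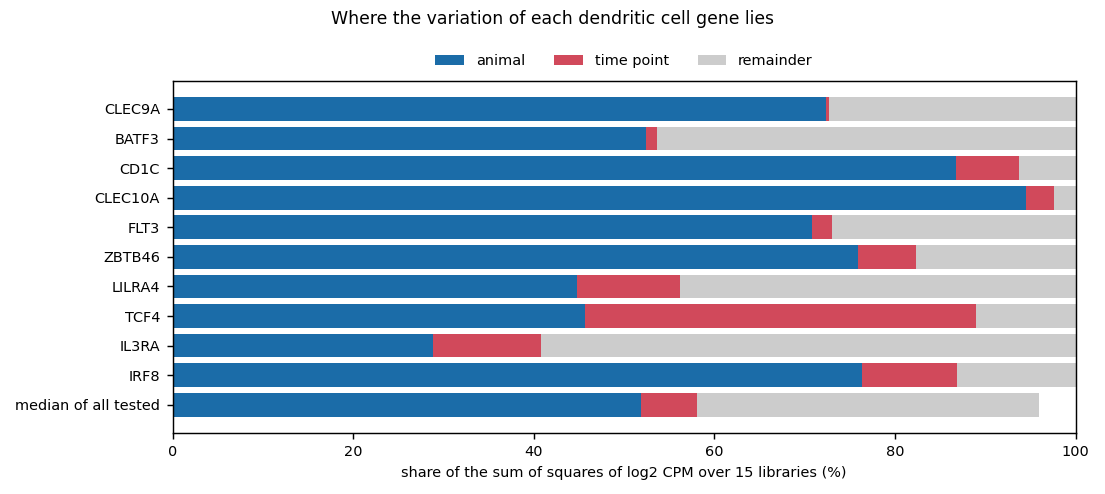
Share of the variance of log2 CPM between animals, between time points and in the remainder, in percent, for the 10 genes and as the median of all 12880 tested features. Medians were taken separately for each share, so that bar does not reach 100, and TCF4 has the largest time point share of the 10, 43.3%.

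These differences lay in particular animals. The mean of the highest animal was 19.2-fold that of the lowest for CLEC10A, 9.54-fold for CLEC9A and 3.61-fold for CD1C, and 1.77-fold to 2.71-fold for the other 7 genes. All 3 libraries of Z15228 had more CLEC9A than any of the other 12, a pattern that 1.59% of features had for that animal. All 3 libraries of Z15303 had less CD1C than the other 12, as 3.11% of features did. An animal stood apart in this way, in either direction, for 2 of the 10 genes and for 17.9% of all features. The other genes of cDC1 did not all follow CLEC9A. Of the 10 tested genes of the wider cDC1 list, XCR1, the chemokine receptor of cDC1, was above the other 12 libraries in all 3 of Z15228, with 5.05 to 7.40 CPM against 1.91 CPM at most, and IDO1 was below them, with 24.0 to 35.4 CPM against 46.5 CPM or more. CADM1 and SNX22, of the same list, also had their highest values in Z15228 but overlapped the other animals. CADM1 had 8.29 to 17.2 CPM in Z15228, against 9.15 CPM at most elsewhere. SNX22 had 5.57 to 10.2 CPM, against 6.21 CPM at most. XCR1, CADM1 and SNX22 were named here after their values were seen. BATF3 had its highest mean in Z15303, at 52.9 CPM, against 46.4 CPM in Z15228. Z15303, lowest in CD1C, had the highest mean of CLEC10A, so these cDC2 genes ordered the animals differently.

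Correlations over the 15 libraries (Pearson's r of log2 CPM) describe which features varied most like each gene. These libraries share animals and time points, so r is given without a test, and the second value is after subtracting each animal's mean. CLEC9A and BATF3, both of cDC1, had r = 0.656 and 0.907. These values include the week 12 library of Z13076, with 3 counts of CLEC9A. There CLEC9A changed by −2.69 from pre-treatment and BATF3 by −1.27, and how far r rests on that library was not tested. CLEC9A and FLT3 had r = 0.819 and 0.607. LILRA4 and TCF4, both of pDCs, had only r = 0.146 and 0.367, and CD1C and CLEC10A, both of cDC2, r = −0.532 and 0.115. The nearest features of CLEC9A were C1orf54 over the libraries (r = 0.937), and HRH2 (r = 0.919) and DNASE1L3 (r = 0.914) within animals. CD300LD (r = 0.911) was also near CLEC9A within animals. DNASE1L3, a secreted DNase of dendritic cells, was also among the nearest of BATF3 (r = 0.922 over the libraries). TNFRSF14 (r = 0.927) and GNG5 (r = 0.910) stood beside it. Within animals BATF3 was nearest to ERH (r = 0.931), TNFRSF14 (r = 0.917) and TCF7L2 (r = 0.913).

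TCF4 had B-cell genes as neighbours. Its nearest were FCRLA (r = 0.966), CD40 (r = 0.931) and CD79B (r = 0.896) over the libraries, and FCRLA (r = 0.952), BLNK (r = 0.941) and MS4A1, which encodes CD20 (r = 0.935), within animals. LILRA4 had DERL3 (r = 0.875) and GAS6 (r = 0.873) over the libraries, and GAS6 (r = 0.898) and IRF7 (r = 0.863), the factor that drives interferon genes in pDCs, within animals. CD1C was nearest to DLGAP1 (r = 0.953), CLEC10A to GTSF1 (r = 0.967) and IRF8 to FCER2, the low-affinity IgE receptor of B-cells (r = 0.919). FLT3 was nearest to ALAS2 (r = 0.855), an enzyme of red cell heme synthesis. ZBTB46 and IL3RA had their nearest at r = 0.840 (SPHK1) and r = 0.811 (PCSK1N). Within animals the nearest of IRF8 were not B-cell markers of the list used here: GRINA (r = 0.931), TFE3 (r = 0.929) and CXCL16 (r = 0.928).

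Markers of B-cells moved with TCF4. All 12 tested B-cell genes had a log2 fold change below 0 at both time points (background 49.0% and 49.8%). The median was −0.94 at week 12 and −0.93 at week 18. Lower in 5 of 5 animals were 11 and 9 of them (background 3.45% and 3.49%). None of the 12 passed the edgeR adjusted p of 0.05, with or without the block. Some of these B-cell genes were named by the study from these same libraries, so their direction is not independent evidence. The summed level of the 13 B-cell genes in the table was 327 to 1154 CPM before treatment, 198 to 609 CPM at week 12 and 241 to 514 CPM at week 18. TCF4 followed this sum with r = 0.935 over the libraries and 0.937 within animals, CD1C with 0.447 and 0.766, IRF8 with 0.493 and 0.639, and LILRA4 with 0.119 and 0.346. With the summed monocyte genes, r was 0.470 and 0.526 for IRF8, 0.329 and 0.391 for CD1C, and −0.141 and −0.019 for TCF4. How much of the TCF4, CD1C and IRF8 counts came from B-cells or monocytes was not tested.

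**Figure D5:**
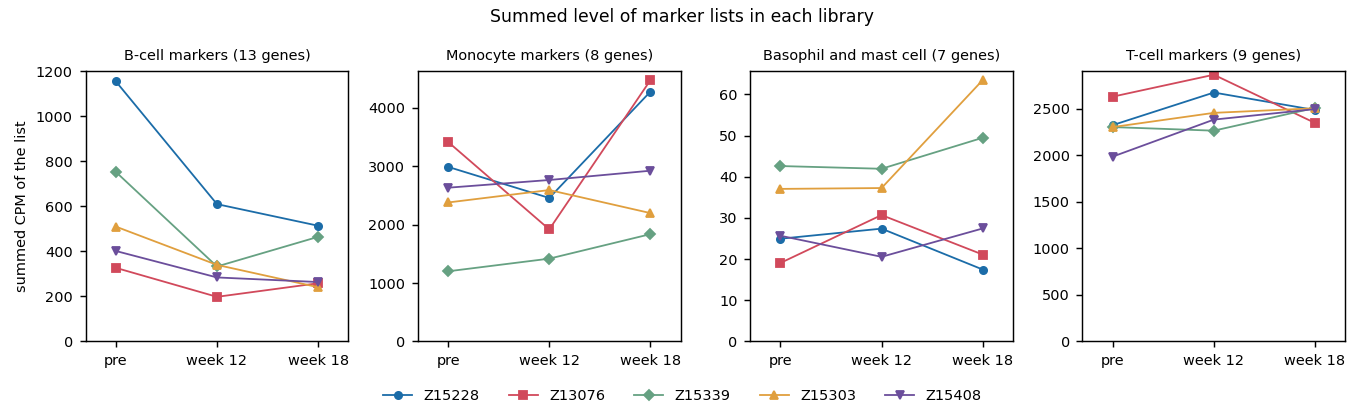
Summed CPM of marker genes of B-cells (13 genes), monocytes (8), basophils and mast cells (7) and T-cells (9) at the 3 time points, with a line for each of the 5 animals. The B-cell sum is lower in each animal at both later time points, and the monocyte sum of Z13076 at week 12 is below its values at the other time points.

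Other blood cells moved less uniformly. The monocyte sum was 1202 to 3416 CPM before treatment, 1418 to 2765 CPM at week 12 and 1838 to 4474 CPM at week 18. The basophil and mast cell sum, which bears on IL3RA, was 19.1 to 42.6, 20.6 to 42.0 and 17.5 to 63.5 CPM. Further genes of the same cells were taken as lists of 92 genes, of which 86 were in the table and 79 tested. None of the 79 passed the edgeR adjusted p of 0.05 in any comparison, with or without the block. At an unadjusted p under 0.05, 2 of 79 were lower and 1 was higher at week 12, and 2 were lower and 1 was higher at week 18 (over all features 1.09% and 0.52%, then 1.08% and 0.613%). With the animal as a block 8 were lower and 1 was higher at week 12, and 9 were lower and 5 were higher at week 18 (over all features 3.25% and 1.44%, then 3.78% and 2.07%). The median log2 fold change of the 79 was −0.11 at both time points, against 0.00 over all features.

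The wider cDC1 list had a log2 fold change below 0 for 8 of 10 genes at week 12 (median −0.16, background 49.0%). At week 18 it had 10 of 10 below 0 (median −0.20, background 49.8%). Among them WDFY4, needed by cDC1 for cross-presentation, had −0.56 ± 0.29 (SE) and −0.45 ± 0.29, and IDO1, which degrades tryptophan, had −0.33 and −0.52. B-cell genes were lower at the same time points (median −0.94 and −0.93), and their part in these changes was not tested. The wider cDC2 list leaned the other way at week 18, when 2 of 8 genes were below 0 (median 0.34, background 49.8%). At week 12 it had 3 of 8 below 0 (median 0.10, background 49.0%). CD33, a sialic acid-binding receptor of myeloid cells, had 0.46 ± 0.28 at week 18 and was higher in 5 of 5 animals (background 3.05%), as was CLEC4A with 0.28. Monocyte genes, with which CD33, CLEC4A and SIRPA are shared, moved with this list at week 18, when 1 of 8 tested was below 0 (median 0.29). SIRPA itself had −0.02 ± 0.18 at week 18. The summed level of the monocyte genes was 1838 to 4474 CPM at week 18, against 1202 to 3416 CPM before treatment, and their part in the result was not tested. FCER1A, an IgE receptor chain shared with basophils, had 0.31 and 0.47. Genes named from these lists were picked by the smallest unadjusted p in these comparisons. The share of all features is therefore not a like comparison for a single named gene.

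In the wider pDC list 21 of 26 genes were below 0 at week 12 (median −0.20, background 49.0%). At week 18, 22 of 26 were (median −0.16, background 49.8%). SCAMP5 had −0.85 ± 0.32 (SE) at week 12, lower in 5 of 5 animals (background 3.45%), and −0.43 ± 0.32 at week 18. BLNK, an adaptor shared with B-cells, had −0.55 ± 0.24 and −0.69 ± 0.24. It was lower in 5 of 5 animals at both (background 3.45% and 3.49%). PLD4 had −0.45 and −0.57. The part of B-cells in the changes of this list was not tested. GZMB, made by pDCs but mainly by NK and cytotoxic T-cells, took 66.8% to 85.8% of the list's summed CPM in a library, so that sum was mostly GZMB. Among activation genes, CD40, also a B-cell gene, had −0.52 ± 0.27 and −0.70 ± 0.27. It was lower in 5 of 5 animals at both (background 3.45% and 3.49%). CCR7, the receptor that leads dendritic cells and naive T-cells to lymph nodes, had 0.35 ± 0.14 and 0.38 ± 0.14. FLT3LG, the ligand of FLT3, had 0.06 and 0.22. None of these named genes passed the adjusted p of 0.05. Apart from GZMB, they too were picked by the smallest unadjusted p of their list, which bears on their counts of animals.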

How the data were processed

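RNA from PBMCs was amplified by SMART-Seq v4, made into Nextera XT libraries and sequenced by the authors. Reads were aligned with STAR 2.7.9a to the M. nemestrina genome, and the authors deposited raw read counts per feature without normalization. Strand use in counting and the treatment of reads that match several genes were not given in the sources used here. Depth was 5610597 to 10379572 counts per library. R 4.3.3 with edgeR 4.0.16 was used: TMM scaling, filterByExpr (minimum count 10) and the quasi-likelihood F test on all 15 libraries with time point as the only term, adjusted by Benjamini-Hochberg over 12880 features. The fits with the animal as a block are given beside it. Animals were paired by the subject labels, and libraries of the same animal deviated together (mean r = 0.551 over 15 pairs, against −0.137 over 60 pairs of different animals). The SE was taken as |log2 fold change| over √F. Log2 CPM used a prior count of 2. The scripts were tested on simulated data. Alternatives were DESeq2 1.42.0, limma 3.58.1 (voom), DESeq2 size factors, no TMM, other low-count filters, an unadjusted threshold, and each animal left out in turn.

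The 10 genes and the lists were chosen with earlier results of these data known. Genes named beyond the 10 were, for each wider dendritic cell list, the 3 with the smallest unadjusted p at week 12 and at week 18 vs. pre-treatment, the first 2 tested markers of other blood cells, and the 3 features nearest to each gene by correlation. A few list genes that were not in the count table, such as CLEC4C, SPIB, TLR9 and THBD, were not analysed here. Not every nearest feature is named, and a withheld item is not reported here. Replicates are different animals.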

Additional observations from a re-analysis of the deposited data

Results flagged for a closer look

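In 60 groups of 5 animals (10 genes at 3 time points, and their changes in 3 comparisons), 5 had an animal far from the other 4 by Dixon's ratio, where chance gives about 1 in 20. CD1C at week 18 was lowest in Z15303, at 4.94 log2 CPM, with the next animal at 6.36. The other 4 were all animal Z13076 as the highest. Its change from week 12 to week 18 was 2.35 for CLEC9A, 1.30 for FLT3 and 0.92 for IRF8 on the log2 scale, where the next highest animals had −0.04, 0.10 and 0.10. Its change in CD1C from pre-treatment to week 18 was 0.37, with the next highest at −0.19. In 3 of these 4 the week 12 library of Z13076 enters the difference.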

How the results depend on the processing

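No setting other than the blocked DESeq2 test put any of the 10 genes past the adjusted p of 0.05, and that test called only TCF4, at week 12 and week 18 vs. pre-treatment. Over all features, 0 passed in each comparison without the block. With the replicate block, which pairs the libraries by animal, 1 passed at week 12, 1 at week 18 and 0 at week 18 vs. week 12. DESeq2 gave 1 at week 12 and, with the replicate block, 27, 50 and 8 in the 3 comparisons. At an unadjusted p under 0.05 the counts were 207, 218 and 65, and 604, 754 and 279 with the block. Leaving out 1 animal in the blocked fit gave 0 to 6 features at week 12 (6 without Z13076) and 0 to 17 at week 18 (17 without Z13076, 3 without Z15408). DESeq2 size factors, no TMM, other filters and voom gave 0.

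Of 610 alternative values for the 10 genes in 3 comparisons, 54 changed sign, and 15 of 30 changes kept their sign in every alternative run. For CLEC10A at week 12 the sign turned to 0.084 with the replicate block, 0.022 by DESeq2 and 0.095 by DESeq2 with the block, and for CLEC9A at week 18 vs. week 12 to 0.16 by voom. The other reversals came from leaving out 1 animal, or the week 12 library of Z13076, an alternative chosen after seeing the data. At week 12 the leave-one-out ranges were −0.21 to 0.15 for BATF3 (−0.21 to 0.22 blocked), −0.14 to 0.055 for CLEC10A, −0.37 to 0.14 for LILRA4 (−0.32 to 0.18 blocked), and blocked −0.69 to 0.13 for CLEC9A and −0.29 to 0.099 for FLT3. At week 18 they were −0.058 to 0.12 for BATF3 (−0.055 to 0.13 blocked), −0.087 to 0.36 for FLT3 (−0.073 to 0.41 blocked), −0.20 to 0.036 for ZBTB46 (−0.15 to 0.064 blocked), and blocked −0.52 to 0.053 for CLEC9A. At week 18 vs. week 12 they were −0.30 to 0.10 for CLEC9A (−0.44 to 0.18 blocked), −0.10 to 0.20 for BATF3 (−0.17 to 0.22 blocked), −0.031 to 0.42 for FLT3 (−0.060 to 0.37 blocked), −0.15 to 0.053 for TCF4 (−0.14 to 0.052 blocked), −0.080 to 0.62 for IL3RA (−0.20 to 0.53 blocked), and −0.010 to 0.29 for IRF8 (−0.015 to 0.25 blocked). The cause was not tested. The changes of TCF4, CD1C and IRF8 from pre-treatment kept their sign throughout. Depth limits CLEC10A, CLEC9A and IL3RA, where a few counts decide a value, and 5 animals with no untreated controls limit all.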

Other observations

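Genes of further dendritic cell groups and of other blood cells are given by counts and medians, and none passed the edgeR adjusted p of 0.05 with or without the animal as a block. Over all features the log2 fold change was below 0 for 49.0% at week 12 and 49.8% at week 18. These shares are the background of the counts in this section. Of 20 tested genes for growth factors and lineage control of dendritic cells, 16 were below 0 at week 12 (median −0.16). At week 18, 14 were (median −0.09). KLF4, a factor of monocytes and cDC2, had −0.41 ± 0.19 (SE) at week 12 and −0.08 ± 0.19 at week 18, and CSF2RA, a chain of the GM-CSF receptor, had −0.05 ± 0.28 and 0.51 ± 0.28. Of 6 genes of the AXL SIGLEC6 dendritic cells, 3 and 2 were below 0 (median 0.00 and 0.06), and of 9 activation genes 6 and 5 (median −0.11 and −0.02).

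Monocyte genes had 6 of 8 below 0 at week 12 (median −0.21) and 1 of 8 at week 18 (median 0.29). Plasma cell genes had 3 of 4 and 4 of 4 below 0 (median −0.45 and −0.47). T-cell genes had 0 of 9 and 1 of 9 below 0 (median 0.15 and 0.09), NK cell genes 1 of 7 and 6 of 7 (median 0.14 and −0.09), and platelet genes 0 of 6 at both (median 0.23 and 0.13). Basophil and mast cell genes had 2 of 4 and 0 of 4 below 0 (median −0.02 and 0.23), neutrophil genes 2 of 5 at both (median 0.09 and 0.33), and stem and progenitor cell genes 1 of 3 at both (median 0.16 and 0.08).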
